A study of Homo sapiens with 6 samples.

Results

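The gene set comprised CGA, the shared alpha subunit of the glycoprotein hormones, the beta subunit genes LHB, FSHB and TSHB, the thyrostimulin genes GPHA2 and GPHB5, the releasing hormone gene CRH and the homeodomain factor gene PITX1. These 8 genes were taken by symbol from the 28265 genes of the raw count table, and all 8 had a row. CGA was chosen for its rise in the comparison described here, so the levels of the 8 genes are given as a description, without a test. The question was whether the rise of CGA came with a beta subunit or with pituitary transcription factors.

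The cells were Huh7, an established line from a human hepatocellular carcinoma. They were transduced with lentiviral particles carrying either an LHX2 expression vector or a control vector and were kept for 48 h, and 3 libraries of polyadenylated RNA were made from each group. The control group, which the labels call parental cells, had thus also been exposed to lentivirus. All libraries come from 1 cell line; the promoter that drove LHX2 is not given in the sources used here, and whether each group's 3 libraries came from separate cultures is not stated in the labels, so that the p-values below measure only a spread among libraries that could be technical.

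Glycoprotein hormones are pairs of an alpha and a beta subunit that are held together without a covalent bond. Luteinizing hormone, follicle-stimulating hormone, thyrotropin and chorionic gonadotropin share the alpha subunit made from CGA, and the beta subunit gives each hormone its receptor. CGA is normally transcribed in gonadotrope and thyrotrope cells of the anterior pituitary and in the placental trophoblast, where cAMP response elements (CREs) drive it through CREB, and LHX2 was described in pituitary cells as a LIM-homeodomain factor that binds an element of the alpha subunit promoter.

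Total counts ran from 30029313 to 39653681 per library, and levels are given as CPM, counts scaled to library totals of the same size and corrected by TMM factors. At this depth 3 counts over a whole group, the limit that a count of 0 allows, correspond to 0.0288 CPM in control and 0.0311 CPM in LHX2 libraries; such limits and all intervals cover counting error only. The counts of LHX2 itself were 1, 2 and 1 with the control vector and 2535, 2427 and 3126 with the LHX2 vector, so the labels and the targeted gene matched. Reads of the vector and of the endogenous gene cannot be told apart in these counts. The hepatocyte label also matched: all 20 hepatocyte markers were expressed above the filter on low counts. They summed to 53383 to 54537 CPM in control and 50919 to 54995 CPM in LHX2 libraries. The largest part was AFP, the alpha-fetoprotein gene, at 24742 and 23084 CPM, and ALB, the albumin gene, averaged 12170 and 12311 CPM.

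CGA (gene ID 1081, chromosome 6, 87085498 to 87095106, minus strand of GRCh38.p14) was already transcribed in control cells and was about 20 times higher with LHX2. Its level was 3.87, 3.65 and 3.94 CPM in the control libraries and 83.2, 82.4 and 66.9 CPM in the LHX2 libraries, from 126, 143 and 128 counts and 2498, 2510 and 2412 counts. Every LHX2 library lay far above every control library, and the lowest LHX2 library was replicate 3. The group means were 3.82 CPM ± 0.153 and 77.5 CPM ± 9.15 (SD, n = 3 each). The log2 fold change of the edgeR fit was 4.34 ± 0.10 (SE), a 20.3-fold difference, and summed counts gave a ratio of 20.2 (exact binomial 95% interval 18.2 to 22.4). In bulk RNA, more cells that express CGA and more CGA RNA per cell cannot be told apart.

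The rise moved CGA from the middle of the expressed genes into the upper range. Per kilobase of its longest transcript, of 1010 bases, the CGA level was 3.78 CPM per kb in control and 76.7 CPM per kb in LHX2 cells. Among the 13902 tested genes with a transcript length, 40.4% lay below CGA in control cells and 94.7% with LHX2, where its rank was 730. By log2 fold change CGA ranked 7 of the 14533 genes tested. The genes above it were LHX2, BMP10, LINC02458, LINC00896, ARPP21 and SLITRK6, and apart from LHX2 itself the most abundant of these averaged 8.19 CPM in the LHX2 group (LINC02458). The library with the highest LHX2 level, LHX2 replicate 3 at 86.8 CPM, was the one with the lowest CGA level.

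**Figure D1:**
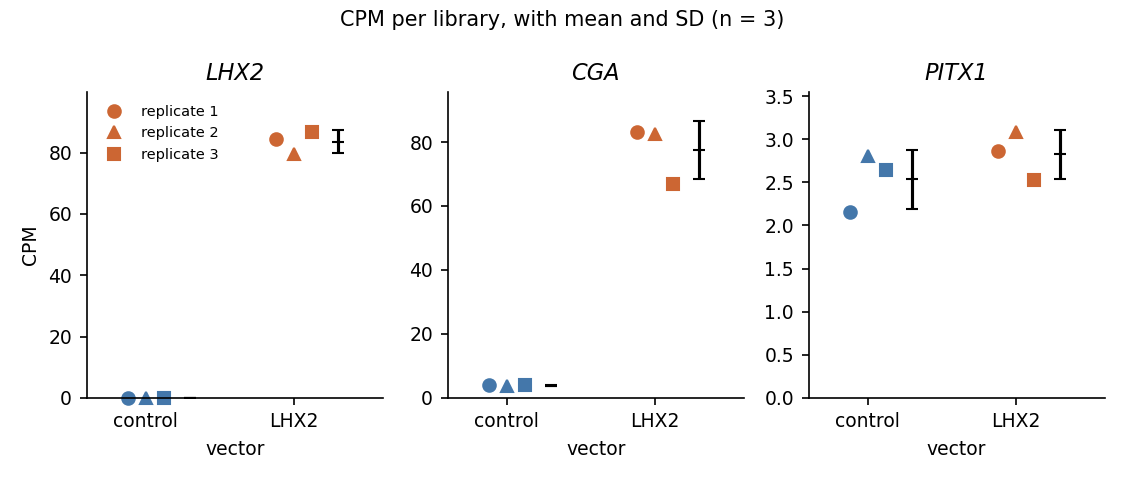
CPM (vertical axis, linear, from 0) of LHX2, CGA and PITX1 by vector group (horizontal axis), with 1 symbol per library and the mean and SD of 3 libraries beside them. CGA lies at 3.65 to 3.94 CPM in control and 66.9 to 83.2 CPM in LHX2 libraries, while the PITX1 values of the groups overlap.

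The sequence before the CGA start is shown because both CREs and a homeodomain core lie in it side by side. The reference promoter (RefSeq, GRCh38.p14) was searched on both strands over the 250 bases before the start, with positions counted back from -1. It holds 2 copies of the CRE TGACGTCA, at -142 to -135 and -124 to -117, and 1 core TAATTA, the core that LIM-homeodomain proteins prefer, at -113 to -108. An SF1-type site TGNCCTTG lies at -219 to -212, and a GATA core AGATAA lies at -156 to -151. Each site is printed 5′ to 3′ on the gene's strand with the motifs in capitals (CRE, CRE with TAATTA, and SF1-type), and the windows of the first and second overlap.
CGA upstream CRE, chr6:87095230-87095259 (minus): taagatcaaatTGACGTCAtggtaaaaatt
CGA downstream CRE and TAATTA, chr6:87095207-87095236 (minus): aaaaatTGACGTCAtggTAATTAcaccaag
CGA SF1-type site, chr6:87095307-87095336 (minus): ttttcatgggcTGACCTTGtcgtcaccatc

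These windows lie before the RefSeq start, and in GENCODE release 29 they fall in the first exon (5′ UTR) of 1 longer CGA transcript, CGA-204. Of 27305 promoters searched the same way, 1.77% held at least 1 CRE and 0.0586%, or 16 promoters, held 2 or more. TAATTA was present in 4.49%, the SF1-type site in 4.61% and the GATA core in 9.37%. CGA also held 3 E-boxes (CANNTG, present in 62.2% of promoters), 2 copies of TAATNA (22.5%), of which 1 is the TAATTA itself, and 5 copies of the shorter CRE core TGACG (21.7%), of which 4 lie within the CREs. It held no copy of TAATCC (5.67%), the core that bicoid-type factors such as PITX1 prefer. CGA was the 1 promoter with at least 2 CREs and a TAATTA, a combination chosen after its sequence was seen.

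Promoters with either motif were called higher about as often as any others. Of the tested genes with a CRE, 17.2% of 314 were higher with LHX2 and 16.2% lower. Of those with a TAATTA, 19.3% of 238 were higher and 14.3% lower, beside 16.7% and 16.3% of the 11306 tested genes with any promoter in the reference. Among 12 promoters with both a CRE and a TAATTA, 7 genes were tested, of which 2 were higher, CGA among them, and 1 was lower. A motif match is a description of letters and does not show that a factor was bound. Whether the TAATTA of CGA is part of the element described for LHX2 in pituitary cells was not tested.

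Of the 6 set members with a promoter in the reference, CGA alone held a CRE or a TAATTA in this window. GPHA2 had no entry, and CRH was not searched. The LHB promoter held 1 TAATCC core at -98 to -93, on the opposite strand, and 1 SF1-type site. TSHB held 2 GATA cores, GPHB5 held 1 TAATCC, and PITX1 held none of the motifs. Among the chorionic gonadotropin beta genes, CGB1 and CGB2 held 1 CRE each. The LHB core and both CREs are printed because these genes encode partners of CGA, and the capitals mark the core or CRE.
LHB, chr19:49017172-49017201 (minus), TAATCC read on the other strand: tcgcccccggggGGATTAgtgtccaggtta
CGB1, chr19:49036930-49036959 (minus): aggctcatcccTGACGTCAcccagtcccca
CGB2, chr19:49031848-49031877 (plus): aggctcaccccTGACGTCAcccagtcccca

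No beta subunit accompanied CGA at a comparable level. LHB, the beta subunit of luteinizing hormone (chromosome 19, 49015980 to 49019498), had 0, 1 and 1 counts in control and 0, 0 and 6 counts in LHX2 libraries. All LHX2-group reads were in replicate 3, the groups overlapped, and the ratio of summed counts was 3.24 with an interval of 0.579 to 32.8. LHB shares most of its sequence with the CGB genes, so the counting could split or misplace such reads. It also overlaps RUVBL2 by 16 bases on the other strand, and RUVBL2 stood at 101 CPM ± 8.49 and 85.4 CPM ± 3.86 (SD, n = 3 each). The part of either in these 8 reads was not tested.

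FSHB, the beta subunit of follicle-stimulating hormone (chromosome 11, 30231014 to 30235194), had no count in any library. TSHB, the beta subunit of thyrotropin (chromosome 1, 115029826 to 115034309), had none either. The placental partners, which encode the beta subunit of chorionic gonadotropin, were read in single libraries at most: CGB3 had 1, 0 and 0 counts in control and 0, 3 and 0 with LHX2, and CGB2 had 1 count in control replicate 3. The other 4 of the 6 CGB genes, CGB1, CGB5, CGB7 and CGB8, had no read, so that the 2 CGB promoters with a CRE belonged to genes with 1 read in all. For each gene without a read the limit was that of 3 counts given above.

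Summed over LHB, FSHB, TSHB, GPHB5 and the CGB genes, beta subunit reads numbered 4 in the control group and 9 in the LHX2 group. By library they were 1, 1 and 2 in control and 0, 3 and 6 with LHX2, so the groups overlapped, and the ratio was 2.43 with an interval of 0.678 to 10.8. Of 1000 reads on CGA and beta subunits together, 9.98 were beta reads in control (exact interval 2.72 to 25.3) and 1.21 with LHX2 (0.554 to 2.3). Per kilobase, the summed beta subunits stood at 0.0350, 0.0487 and 0.0985 CPM per kb in the control libraries, where CGA stood at 3.83, 3.61 and 3.90 CPM per kb. In the LHX2 libraries the beta sum was 0, 0.112 and 0.318 CPM per kb, the highest value being that of replicate 3, and CGA was at 82.3, 81.6 and 66.3 CPM per kb. Alpha subunit RNA thus exceeded that of the beta subunits in every library of both groups. As CGA was chosen for its rise, nothing is read from the difference between the groups in these shares.

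Thyrostimulin pairs its own alpha subunit, GPHA2, with GPHB5. GPHA2 (chromosome 11, 64934471 to 64937708) had 7, 6 and 9 counts in control and 9, 3 and 11 counts in LHX2 libraries. These are 0.215 CPM ± 0.0621 and 0.234 CPM ± 0.118 (SD, n = 3 each), with overlapping groups and a ratio of 1.13 (interval 0.601 to 2.12), so a change of the size of that in CGA was not seen in the other alpha subunit. GPHB5 (chromosome 14, 63312835 to 63318935) had no count in any library.

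CRH, the hypothalamic hormone that drives corticotropin release and is also made in placenta (chromosome 8, 66176376 to 66178464), had no count in any library. PITX1, a bicoid-type homeodomain factor that activates CGA and other hormone genes in the pituitary (chromosome 5, 135027734 to 135034789), was expressed in both groups at 2.15, 2.81 and 2.65 CPM in control and 2.86, 3.09 and 2.53 CPM with LHX2. The groups overlapped, with means of 2.54 CPM ± 0.342 and 2.82 CPM ± 0.282 (SD, n = 3 each). The log2 fold change of PITX1 was 0.14 ± 0.15 (SE), and its ratio of summed counts was 1.10 (interval 0.925 to 1.31). PITX1 overlaps the antisense gene C5orf66, which had 3 to 13 counts per library, and the strand setting of the counting is not given in the sources used here.

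Of the 8 genes, 2 passed the filter on low counts (CGA and PITX1), 2 had reads below it (GPHA2 and LHB) and 4 had no read. The edgeR fit called 1 of the 8 higher, CGA, and 0 lower at an adjusted p of 0.05, beside 16.6% and 15.8% of all 14533 genes tested, and 32.5% in either direction. CGA was also the 1 gene of the set whose groups did not overlap, beside 22.9% of all genes tested with LHX2 higher and 44.9% in either direction. Since CGA was chosen from this comparison, nothing is read from these counts.

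**Figure D2:**
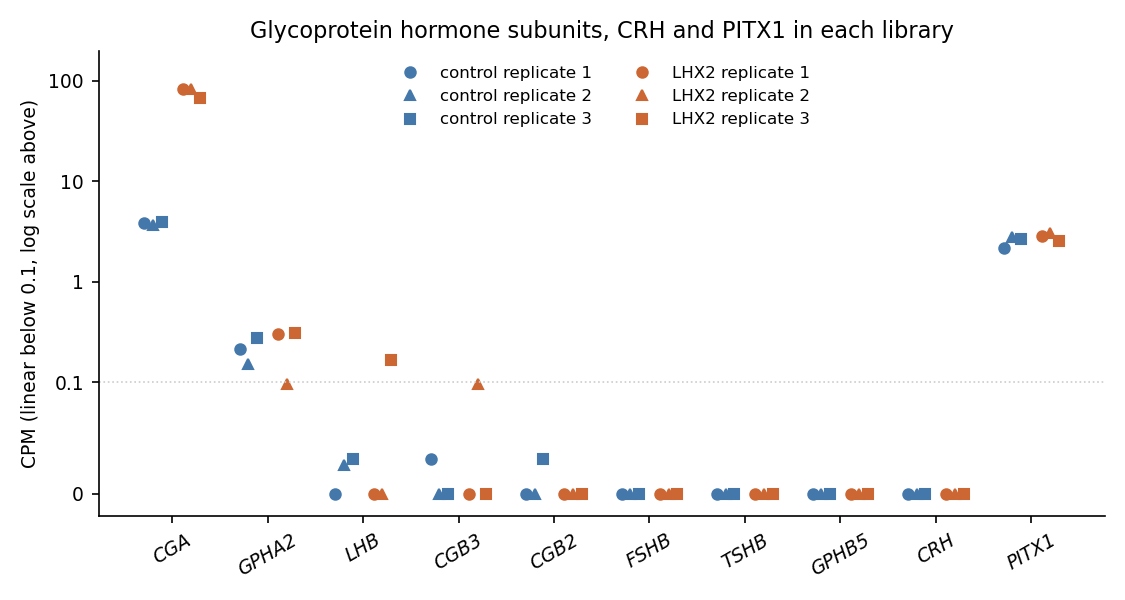
CPM in each library (vertical axis, linear below 0.1 and logarithmic above) for the 8 genes of the set and for CGB3 and CGB2 (horizontal axis), with 1 symbol per library. CGA lies above 60 CPM in the LHX2 libraries, PITX1 near 2 to 3 CPM in both groups, and the beta subunits at or below 0.167 CPM.

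Pituitary transcription factors other than PITX1 were mostly unread, below the filter or not called, and those called were called higher. Of 28 in the list, 10 were tested, 4 were higher, 0 were lower and 6 were not called. Among all genes tested, 16.6% were higher and 15.8% lower. The list's median log2 fold change was 0.28, beside 0.01 for all genes tested. ZBTB20, a zinc finger factor needed for lactotropes, was called higher at 34.9 and 48.3 CPM (edgeR adjusted p = 0.012). Its LHX2 libraries spread widely at 41.2, 63.4 and 40.2 CPM, and the call was lost with DESeq2 (adjusted p = 0.12) and in edgeR without control replicate 2 (adjusted p = 0.057).

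LHX4, a LIM-homeodomain factor of the pituitary primordium and a relative of LHX2, was also called higher. It was named after its values were seen, since its mean lay under the 1 CPM that the rule for named genes asks. LHX4 had 3, 4 and 2 counts in control and 20, 16 and 17 counts in LHX2 libraries, and the groups did not overlap. The log2 fold change of LHX4 was 2.62 ± 0.43 (SE, edgeR adjusted p = 3.0e-04), at levels of 0.0853 and 0.554 CPM.

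Most factors that specify gonadotropes and thyrotropes were at or near 0. POU1F1, which specifies thyrotrope and other lineages, had no read, and neither did OTX2, RAX, SIX6, SOX3, NEUROD1 and GLI2. NR5A1 (SF1), the gonadotrope factor, had 1 count in control replicate 1 and 3 counts in LHX2 replicate 3. LHX3, the pituitary LIM-homeodomain factor, had 1 count in control replicate 3, and ISL1 had 0 to 3 counts per library. GATA2, which acts in both lineages, was expressed at 9.73 and 10.6 CPM without a call (log2 fold change 0.14 ± 0.13 SE).

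Other anterior pituitary hormones were also near 0. GH1 (growth hormone) had no read. PRL (prolactin) had 0 counts in control and 1, 1 and 0 with LHX2, and POMC, the corticotropin precursor, had 1 count in LHX2 replicate 3. The summed level of these genes was 0 in each control library and 0.0278 to 0.0333 CPM in the LHX2 libraries, that is, 1 read per library.

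**Figure D3:**
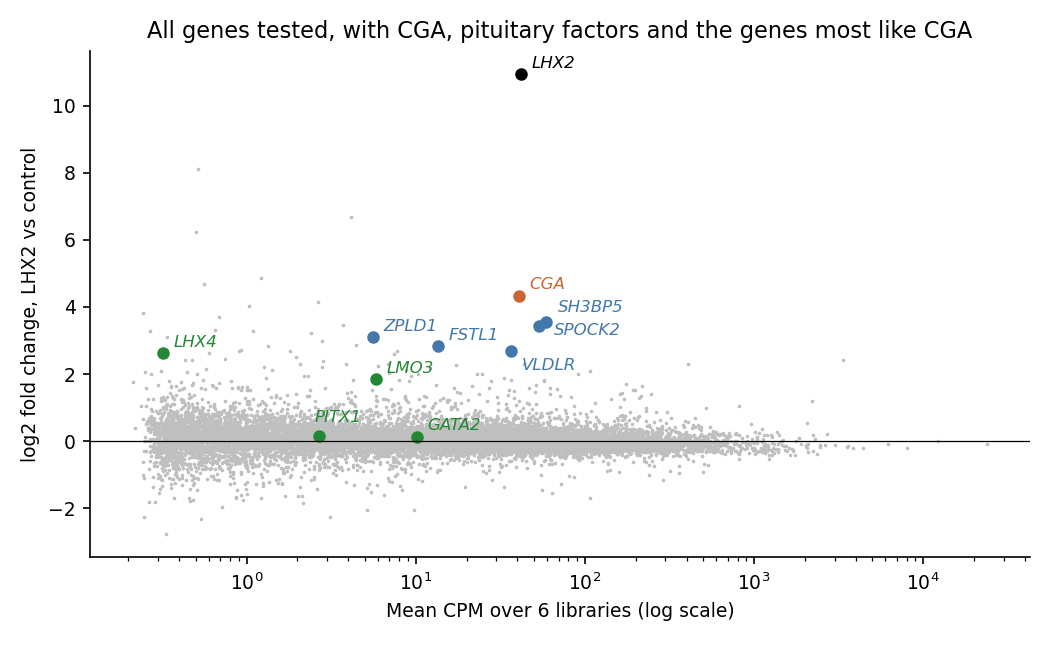
Log2 fold change of LHX2 against control (vertical axis) by the mean CPM over 6 libraries (horizontal axis, log scale) for all 14533 genes tested, with LHX2 in black, CGA in orange, pituitary and LIM-domain genes in green and the 5 genes most like CGA in blue. CGA stands at a log2 fold change of 4.34, while PITX1 and GATA2 lie near 0; the fitted value of LHX2 depends on the prior count, since its control libraries held 1 or 2 counts.

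Some LIM-domain genes and cofactors of LIM-homeodomain proteins were also higher with LHX2. Of 22 LIM-homeodomain and cofactor genes other than LHX2, 12 were tested, and 4 were higher, 0 lower and 8 not called. The shares of all genes tested were 16.6% higher and 15.8% lower. The list's median log2 fold change was 0.19, beside 0.01 for all genes tested. LMO3, a LIM-only protein, rose from 2.55 CPM ± 0.227 to 9.09 CPM ± 0.0992 (SD, n = 3 each; edgeR adjusted p = 9.4e-09). LMO4, a LIM-only protein that competes for LDB cofactors, rose from 50.8 to 81.6 CPM (edgeR adjusted p = 1.2e-07), and SSBP3, an LDB partner, rose from 51 to 58.7 CPM (edgeR adjusted p = 0.0061). LDB1, the cofactor that LIM-homeodomain proteins need, stood at 52.2 and 54.9 CPM and was not called. LHX4 is the other called gene and is in both lists.

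Known regulators of the alpha subunit gene were called higher about as often as genes in general. Of 26 regulators apart from LHX2 and PITX1, 17 were tested and 3 were higher, 0 lower and 14 not called. The shares of all genes tested were 16.6% higher and 15.8% lower. The list's median log2 fold change was 0.02, beside 0.01 for all genes tested. JUN, an AP-1 subunit, rose from 23.1 CPM ± 2.37 to 36.5 CPM ± 0.553 (SD, n = 3 each; edgeR adjusted p = 5.5e-06), and THRB, a thyroid hormone receptor, rose from 133 to 157 CPM (edgeR adjusted p = 0.0011). CREB1, which binds CREs, was called higher at 89.6 and 99.8 CPM (log2 fold change 0.15, edgeR adjusted p = 0.014). Leaving out LHX2 replicate 2 ended that call, as did leaving out control replicate 1 or 3 (edgeR adjusted p from 0.054 to 0.060). The placental regulator GATA3 was not called, at 2.19 and 1.95 CPM.

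In the cAMP and protein kinase A pathway, which acts on CREs, 28 of 30 genes were tested. Of these, 11 were higher, 3 lower and 14 not called, where 16.6% of all genes tested were higher and 15.8% lower. The median log2 fold change was 0.09, beside 0.01 for all genes tested. PDE4D, which degrades cAMP, rose from 101 CPM ± 1.22 to 241 CPM ± 8.28 (SD, n = 3 each; edgeR adjusted p = 8.6e-12). NR4A2 and NR4A3, nuclear receptors induced by cAMP among other signals, rose from 4.76 to 9.75 CPM and from 1.26 to 2.76 CPM (edgeR adjusted p = 1.6e-06 and 3.1e-04). AKAP12, an anchor of protein kinase A, rose from 11.7 to 25.6 CPM (edgeR adjusted p = 1.2e-08). PRKAR2B, a regulatory subunit that restrains the kinase, fell from 10.2 to 4.32 CPM (edgeR adjusted p = 4.4e-07), and PRKAR1B fell from 12.9 to 10.2 CPM (edgeR adjusted p = 0.0066). The regulatory subunits did not move together: PRKAR1A, another of the 4, rose from 370 to 489 CPM (edgeR adjusted p = 1.5e-06), and PRKAR2A was not called at 260 and 242 CPM. PRKAR1A and PRKAR2A were named after their values were seen.

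Receptors for the hormones that contain CGA were at or near 0. FSHR and LHCGR had no read, and TSHR had 0, 0 and 0 counts in control and 0, 1 and 1 with LHX2. Of the 16 receptor and signal transduction genes, 12 were tested, and 4 were higher, 1 lower and 7 not called (median log2 fold change 0.11). All genes tested had 16.6% higher, 15.8% lower and a median of 0.01. GNAS, the stimulatory G protein subunit, rose from 577 to 658 CPM (edgeR adjusted p = 0.0029), and ADCY6, an adenylyl cyclase, rose from 58.2 to 73.1 CPM (edgeR adjusted p = 6.3e-05). LGR5, a relative of these receptors that binds R-spondins, fell from 34.2 CPM ± 0.874 to 17.6 CPM ± 0.698 (SD, n = 3 each; edgeR adjusted p = 2.1e-08).

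Genes that act around CRH and the releasing hormones were mostly at low counts or unread. Of 21 genes beside CRH, 8 had no read, 8 had reads below the filter and 5 were tested. Of these, 1 was higher, 0 were lower and 4 were not called (median log2 fold change 0.09). All genes tested had 16.6% higher, 15.8% lower and a median of 0.01. The called gene was SSTR2, a somatostatin receptor, which rose from 33.2 to 40.1 CPM (edgeR adjusted p = 0.0044). The CRH receptor gene CRHR1, the CRH binding protein gene CRHBP and the gonadotropin-releasing hormone receptor gene GNRHR had no read. GNRH1 was expressed at 1.32 and 1.42 CPM and was not called.

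The rise of CGA was not accompanied by a general rise of trophoblast genes, the other tissue where CGA is active. Of 53 trophoblast and placental genes, 19 were tested, and 3 were higher, 8 lower and 8 not called. Among all genes tested, 16.6% were higher and 15.8% lower. The list's median log2 fold change was -0.16, beside 0.01 for all genes tested. CYP19A1, the aromatase gene, rose from 0.329 CPM ± 0.0874 to 2.35 CPM ± 0.335 (SD, n = 3 each; edgeR adjusted p = 7.5e-07), and ESRRG, an orphan receptor of the placenta, rose from 12.8 to 19.6 CPM (edgeR adjusted p = 1.8e-05). S100P fell from 47.9 CPM ± 0.310 to 18.6 CPM ± 1.37 (SD, n = 3 each; edgeR adjusted p = 3.4e-10). ELF5 and CDX2, trophoblast stem cell factors, fell from 2.1 to 1.17 CPM and from 14.3 to 8.51 CPM (edgeR adjusted p = 0.0020 and 1.5e-05).

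Several defining trophoblast markers had no read. The placental lactogen genes CSH1 and CSH2, KRT7 and TFAP2C were among 17 list genes with no read, and GCM1, the factor of syncytium formation, had 4 to 9 counts per library. Other list genes were read in both groups and not called, among them ERVW-1 at 2.45 and 2.87 CPM. TEAD4, at 12.3 and 13.6 CPM, was another. The list summed to 3127 to 3205 CPM in control and 2781 to 3004 CPM in LHX2 libraries. Most of that was PEG10, an imprinted gene also active in liver cancer cells, at 2724 and 2534 CPM and not called.

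Genes that finish and package glycoprotein hormones changed in both directions. Of 30, 24 were tested, and 5 were higher, 7 lower and 12 not called (median log2 fold change -0.03). All genes tested had 16.6% higher, 15.8% lower and a median of 0.01. CHGB, a granule protein, rose from 2.85 CPM ± 0.0985 to 5.86 CPM ± 0.933 (SD, n = 3 each; edgeR adjusted p = 3.5e-05), and FUT8, which adds core fucose, rose from 12.9 to 20.5 CPM (edgeR adjusted p = 4.0e-06). CHST9, which can sulfate the terminal sugars of pituitary hormones, rose from 41.7 to 59.2 CPM (edgeR adjusted p = 5.8e-06), while its relative CHST8 had no read. ST6GAL1, a sialyltransferase of hepatocytes, fell from 322 CPM ± 16.5 to 159 CPM ± 4.85 (SD, n = 3 each; edgeR adjusted p = 3.2e-10). CPE, a prohormone-processing enzyme, fell from 16.4 to 11.4 CPM (edgeR adjusted p = 3.9e-04), and PCSK1 and PCSK2, the prohormone convertases, had no read. The 7 lower calls became 4 when libraries were scaled by their totals alone.

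The hepatocyte markers, given here as the background of the cells, were called in both directions. Of 20, 6 were higher, 7 lower and 7 not called (median log2 fold change -0.08). All genes tested had 16.6% higher, 15.8% lower and a median of 0.01. VTN rose (log2 fold change 1.05) and AHSG fell (-1.17), both genes of secreted plasma proteins.

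**Figure D4:**
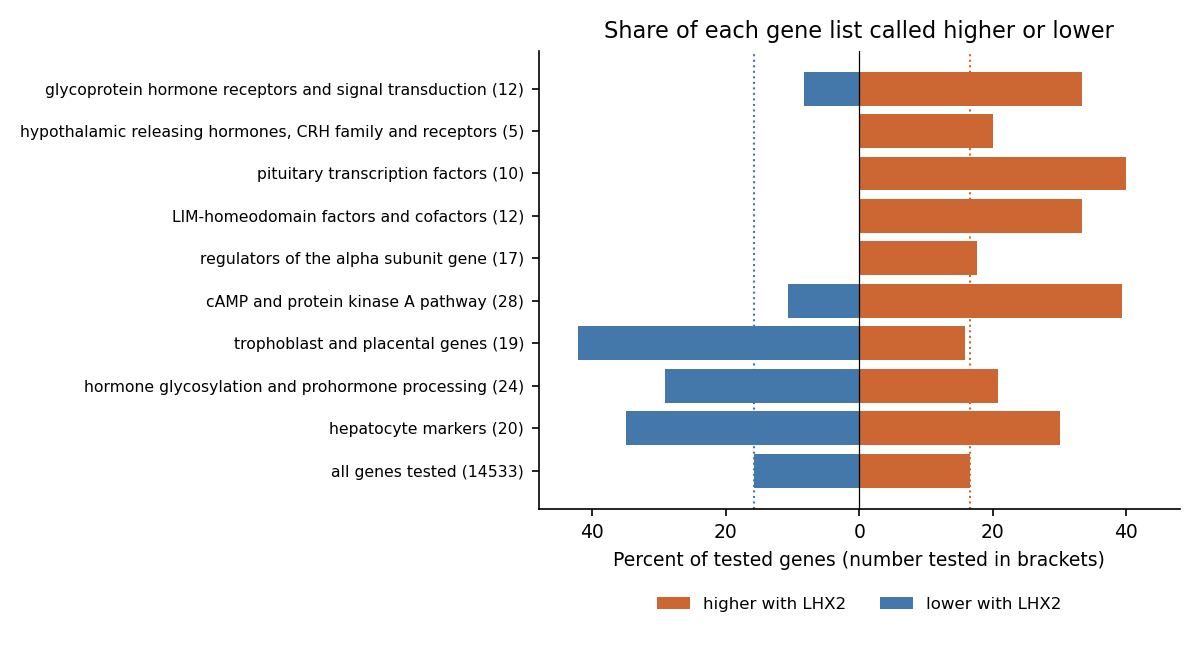
Percent of the tested genes of each list (rows, number tested in brackets, without the set's own members and LHX2) that the edgeR fit called higher (orange, to the right) or lower (blue, to the left), with dotted lines at the shares of all genes tested, 16.6% and 15.8%. Pituitary and LIM-domain lists hold higher calls and no lower call among 10 and 12 tested genes, and trophoblast genes hold 8 lower and 3 higher calls among 19; lists share genes, and no list was tested against other genes.

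The genes beside CGA on chromosome 6 did not share its change. Of 13 genes in the table that start within 1 Mb of the CGA start, 10 were tested, and their log2 fold changes ran from -0.20 to 0.99 with a median of -0.04. The nearest tested gene, ZNF292, a zinc finger gene 60.5 kb away, stood at 77.3 CPM ± 2.29 and 82.9 CPM ± 5.71 (SD, n = 3 each) and was not called. CFAP206, a cilia gene 313 kb away, was called higher at 0.321 and 0.638 CPM (log2 fold change 0.99 ± 0.34 SE, edgeR adjusted p = 0.036). ORC3, a replication origin subunit 495 kb away, was called lower at 110 and 102 CPM (-0.12 ± 0.04 SE, edgeR adjusted p = 0.039).

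The other 7 tested neighbours, SMIM8, GJB7, C6orf163, LINC01590, SLC35A1, RARS2 and AKIRIN2, were not called, with log2 fold changes of -0.20 to 0.45. HTR1E, LOC101928911 and SPACA1 had no read. Both calls were lost under several alternatives: CFAP206 with DESeq2 (adjusted p = 0.11) and when any 1 of 4 libraries was left out, those numbered 1 and 2 in each group (edgeR adjusted p from 0.064 to 0.15), and ORC3 with DESeq2 (adjusted p = 0.056) and without any of the libraries except LHX2 replicate 1 (edgeR adjusted p from 0.054 to 0.15).

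**Figure D5:**
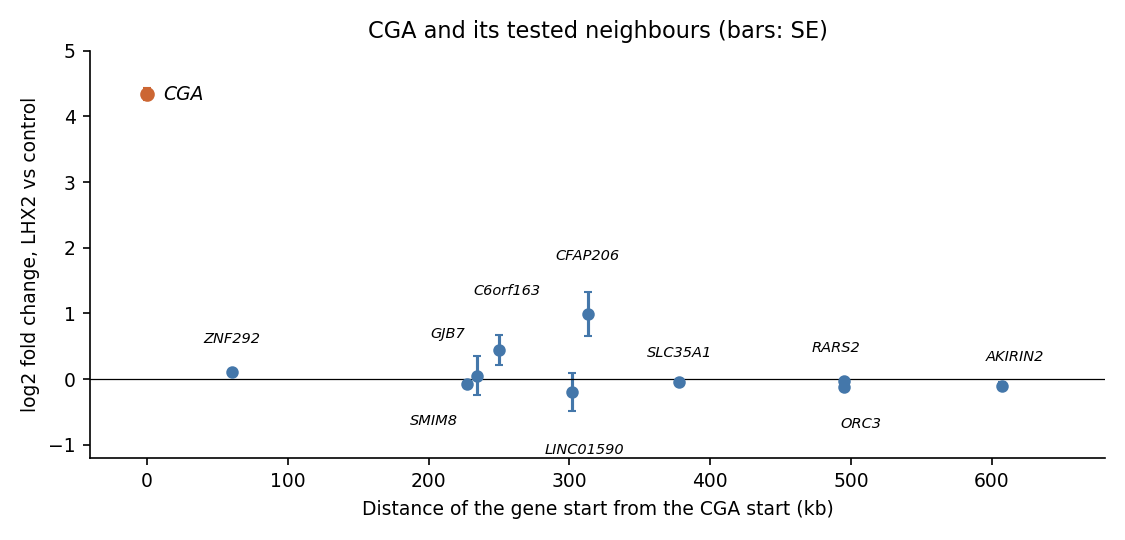
Log2 fold change of LHX2 against control (vertical axis, bars are SE) for CGA and the 10 tested genes that start within 1 Mb of it, by the distance of their start from the CGA start in kb (horizontal axis). CGA lies at 4.34 and its neighbours between -0.20 and 0.99; all tested neighbours lie on the same side of CGA.

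The genes whose profile over the 6 libraries was most like that of CGA were SH3BP5, SPOCK2, ZPLD1, FSTL1 and VLDLR. Likeness was the root mean square distance between log2 CPM profiles, each centred on its gene's mean, over the 10381 genes that averaged 5 CPM or more, and it ran from 0.40 for SH3BP5 to 0.82 for VLDLR. SH3BP5, a regulator of JNK and RAB11, stood at 8.85, 9.14 and 9.76 CPM in control and 117, 103 and 104 CPM in LHX2 libraries, an 11.7-fold difference. SPOCK2, a matrix proteoglycan, was 10.7-fold higher, ZPLD1 8.56-fold, FSTL1, a secreted follistatin-like protein, 7.16-fold, and VLDLR, a lipoprotein receptor, 6.46-fold. Each differed less between the groups than CGA, at 20.3-fold, but the choice of genes fixed this. LHX2 was left out, and the other genes with a larger log2 fold change than CGA averaged under 5 CPM. As the profiles were picked for likeness to CGA, their direction is no separate result either.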

How the data were processed

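For 6 libraries the authors deposited whole-number read counts per gene, not normalized, made with featureCounts 2.0.0 after alignment with TopHat2 2.1.1 (Bowtie2 2.3.5.1, SAMtools 1.9) to GRCh38/hg38, per the submitters' processing notes. Neither the gene annotation nor the use of strand in counting is given in the sources used here; the library kit keeps strand, per the labels' protocols. All count columns were used (0 left out). One control column, named differently from the others, was taken as control replicate 1 from the number it ends in.

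Genes were filtered with filterByExpr (minimum count 10, total 15, proportion 0.7), scaled with TMM and compared with the edgeR 4.0.16 quasi-likelihood test in R 4.3.3, with the group as the single term; p-values were adjusted over 14533 genes (Benjamini-Hochberg, threshold 0.05). The SE of a log2 fold change is approximate: its absolute value divided by the square root of the test's F statistic. It may be too small at low counts. The fit was tested on simulated data. Ratios of summed counts carry exact binomial 95% intervals. DESeq2 1.42.0, limma-voom (limma 3.58.1), other scalings, filters, a replicate block and each library left out were the alternatives. Replicates differed by more than sampling noise (chi-square per degree of freedom 2.33 to 8.27).

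Positions came from RefSeq GRCh38.p14 (27966 genes matched by identifier), promoters from its table (6 of the 8 genes) and transcript lengths from GENCODE release 29. The members and 11 gene lists were chosen with earlier results of these data known. Named genes were the 8 genes, LHX2, up to 4 called genes per list and direction by log2 fold change with a mean of at least 1 CPM, tested neighbours and the 5 genes most like CGA. Some genes that this rule names are not reported here, and unread or uncalled genes were named after their values were seen. A planned comparison of the subunits' protein sequences was not analysed here.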

Additional observations from a re-analysis of the deposited data

How the results depend on the processing

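The log2 fold change of CGA ran from 4.28 to 4.44 over the 14 alternatives of scaling, filter, tool, replicate block and omitted library, and that of PITX1 from 0.04 to 0.23. The number of genes called ran from 3549 to 4959, beside 4716. Of the list counts, the 7 lower calls among the glycosylation and processing genes became 4 with library totals alone and 4 with the replicate block, and 4 to 7 with 1 library left out; the other list counts stayed within 1.5 times their value. The 1 higher neighbour of CGA became 0 with DESeq2, with the filter of 1 CPM in 3 libraries and with the replicate block, and 0 to 1 with 1 library left out. The 1 lower neighbour became 0 with DESeq2, library totals alone, no filter on low counts and the replicate block, and 0 to 1 with 1 library left out. The cause was not tested, except that the 1 CPM filter removes the higher neighbour from the test. With a window of 100 bases in place of 250, CGA holds 0 CREs and 0 TAATTA cores, since all 3 sites lie farther from the start.

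No pairing by replicate number was seen: the deviations of same-numbered libraries correlated at -0.0555, -0.0735 and -0.195. Those of libraries with other numbers correlated at -0.0717 to 0.133. Deviations were taken from the mean of each group's 3 libraries, so these values are not independent and cannot exclude a pairing. With the replicate block 3768 genes were called, and the log2 fold change of CGA was 4.34 and that of PITX1 0.15. LHB, GPHA2 and the CGB genes had 0 to 11 counts per library, with 3 libraries a group, and did not pass the filter. Changes in those genes could have been missed, and the smallest change that could be seen was not determined.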

Other observations

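LHX2 replicate 3, the library with 6 reads on LHB, also held 4 counts for CRHR2, a receptor of the CRH family, 3 for NR5A1 and 3 for FOXL2, a gonadotrope factor, where the other LHX2 libraries held 0, 0 and at most 1. Genes with at least 3 counts in 1 library and none in the other 5 numbered 24 in LHX2 replicate 3 and 5 to 21 in each of the others. The number of genes with at least 1 read was 18616 in that library and 18520 to 18758 in the others. These genes were picked after their values were seen.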
